A study of Mus musculus with 6 samples.

Results

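The 30 genes described here encode enzymes, regulators and a carrier of sterol and fatty acid synthesis. They were picked by name and not by a threshold on measured values, although earlier results of these data were known, from 25239 genes counted by bulk RNA sequencing of mouse thyroid organoids. Of the 30, 18 encode enzymes of the sterol pathway, 8 encode enzymes of fatty acid synthesis, elongation and desaturation, and 4 are regulators or a sterol carrier (Insig1, Srebf1, Srebf2 and Stard4). All 30 passed the filter on low counts, as did 15256 genes in all. The organoids came from G4 RosaLuc mouse embryonic stem cells carrying TRE-Nkx2-1-Pax8, for doxycycline-inducible expression of these thyroid transcription factors, and bTg-NES-BrafV637E-ERT2, a Braf fusion protein with the V637E change, driven by a bovine thyroglobulin promoter and activated by 4-hydroxytamoxifen (4OHT). All 6 libraries carried both transgenes, had received doxycycline at 1 µg/ml for 5 days and 8-Br-cAMP for 2 weeks, and were collected at day 31. The 2 cAMP libraries continued on 8-Br-cAMP alone, with the solvent of 4OHT according to the methods. The 2 4OHT libraries also received 1 µM 4OHT for 5 days. The 2 PD+LY libraries received 1 µM 4OHT with 250 nM PD0325901, a MEK inhibitor, and 5 µM LY204002, given in the methods as a PI3K inhibitor, for 3 days on 8-Br-cAMP.

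Several features limit the groups as a model. The cells derived from a single recombinant line, wells were pooled for each library, and the follicle-enriched material still held cells of other types. The methods describe inhibitors added after a period on 4OHT alone, so the length of 4OHT exposure may also have differed between PD+LY and 4OHT and cannot be told apart from the inhibitors. Total counts ran from 14898409 to 20637959 per library. Levels are given as CPM, counts scaled to the total of the tested genes in a library after TMM adjustment, and 1 count corresponded to 0.0486 to 0.0667 CPM. The summed level of 10 thyroid markers was 1105 to 1650 CPM in cAMP, 571 to 762 CPM in 4OHT and 986 to 1977 CPM in PD+LY, with no marker at 0 in any library. A list of 8 pluripotency markers was also abundant, at 3627 to 4094 CPM summed per library. Of 8 ERK output genes, which report MEK and ERK signaling, 6 fell in PD+LY against 4OHT (75%, against 12.1% of all genes tested). Dusp6 stood at 46.5 and 47.6 CPM in cAMP, 27.6 and 29.3 CPM in 4OHT and 5.14 and 5.30 CPM in PD+LY. In 4OHT against cAMP, 3 of the 8 fell (37.5%, against 4.35% of all genes) and 1 rose (12.5%, against 4.04%). Dusp6 was among those that fell, with a log2 fold change of -0.72 (edgeR adjusted p = 0.00489).

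Cholesterol is made from acetyl-CoA by a long chain of enzymes. The mevalonate steps build farnesyl diphosphate, squalene is then formed and closed into lanosterol, and lanosterol is trimmed and reduced to cholesterol in the endoplasmic reticulum. Acly supplies cytosolic acetyl-CoA, from which Acaca and Fasn build fatty acids. These are lengthened by Elovl6 and given double bonds by the desaturases Scd1, Scd2, Fads1 and Fads2. Both routes are controlled by the SREBP transcription factors, encoded by Srebf1 and Srebf2, of which the former is best known for lipogenic genes and the latter for sterol genes. When sterols are plentiful, Insig1 holds the precursors of these factors in the endoplasmic reticulum. MEK and ERK as well as PI3K, AKT and mTORC1 signaling are known to act on SREBP processing and stability in many cell types.

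SREBPs act at promoters together with NF-Y, which binds CCAAT boxes, so promoters were searched for the letters CCAAT, and for the 9-letter sterol regulatory element TCACNCCAC, on both strands. A RefSeq promoter window of 300 bases (GRCm38.p6, 250 bases before the start and 50 after) was held for 23 of the 30 genes. CCAAT was present in 19 of the 23, against 42.9% of the 11974 tested genes with a window. By branch, 14 of 15 sterol pathway genes and 2 of 5 fatty acid genes held it. The 9-letter element was found in 1 of the 23, Hmgcs1, and in 1.44% of tested genes. Other letter patterns were searched too. GGGCGG was present in 19 of the 23 and in 66.5% of tested genes. CACGTG was present in 4 of the 23 and in 11.4%, and the shorter sterol element CACNCCAC in 3 of the 23 and in 7.84%. Among members that fell in PD+LY against 4OHT, 12 of 14 held CCAAT, and among those not called, 7 of 9 did. Stretches of 150 bases are shown for 4 genes, 3 from the sterol pathway and 1 from the fatty acid pathway, because they include the member with the largest change (Lss), the member with the strict sterol element (Hmgcs1), a mevalonate gene with 4 CCAAT matches in its stretch (Mvk) and a gene called in no comparison (Fasn). They are written 5′ to 3′ on the strand of the gene, and capitals mark CCAAT or its complement ATTGG and the 9-letter element.
Mvk, chr5:114444119-114444268, plus strand: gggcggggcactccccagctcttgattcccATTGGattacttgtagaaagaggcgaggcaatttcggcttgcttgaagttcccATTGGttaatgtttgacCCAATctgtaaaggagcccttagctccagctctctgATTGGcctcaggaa
Hmgcs1, chr13:119690201-119690350, plus strand: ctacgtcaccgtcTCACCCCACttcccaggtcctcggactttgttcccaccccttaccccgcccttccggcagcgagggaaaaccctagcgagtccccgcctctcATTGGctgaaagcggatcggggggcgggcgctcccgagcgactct
Lss, chr10:76531438-76531587, plus strand: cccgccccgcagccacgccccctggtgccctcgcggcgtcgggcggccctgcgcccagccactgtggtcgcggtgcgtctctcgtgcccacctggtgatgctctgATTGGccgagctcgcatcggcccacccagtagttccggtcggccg
Fasn, chr11:120824548-120824697, minus strand: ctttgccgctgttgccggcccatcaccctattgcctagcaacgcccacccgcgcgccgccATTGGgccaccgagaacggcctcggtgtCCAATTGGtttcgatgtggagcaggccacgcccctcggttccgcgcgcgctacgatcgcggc
In Mvk the 4 CCAAT matches of the stretch, out of 5 in its window, are spread out. In Hmgcs1 the stretch holds 1 of the 4 in its window, near the start, and in Lss the only 1 of its window lies near the start. In Fasn 2 of the 3 overlap. A match of letters is no evidence that a factor was bound in these cells.

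Per kilobase of principal transcript, the most abundant members in the cAMP libraries were Fdps at 132 CPM per kb, Acly at 128 CPM per kb and Scd2 at 125 CPM per kb, and the least abundant was Hsd17b7 at 4.18 CPM per kb. Across the 6 libraries Hsd17b7 had 17.4 to 25.1 CPM. The summed level of the 18 sterol pathway genes was 1514 to 1556 CPM in cAMP, 1526 to 1559 CPM in 4OHT and 1164 to 1172 CPM in PD+LY. The summed level of the 8 fatty acid genes was 2539 to 2758 CPM in cAMP, 2457 to 2521 CPM in 4OHT and 2226 to 2288 CPM in PD+LY. Both sums were lower in each PD+LY library than in every other library, while between cAMP and 4OHT the sterol sums overlapped and the fatty acid sums were lower in 4OHT.

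**Figure D1:**
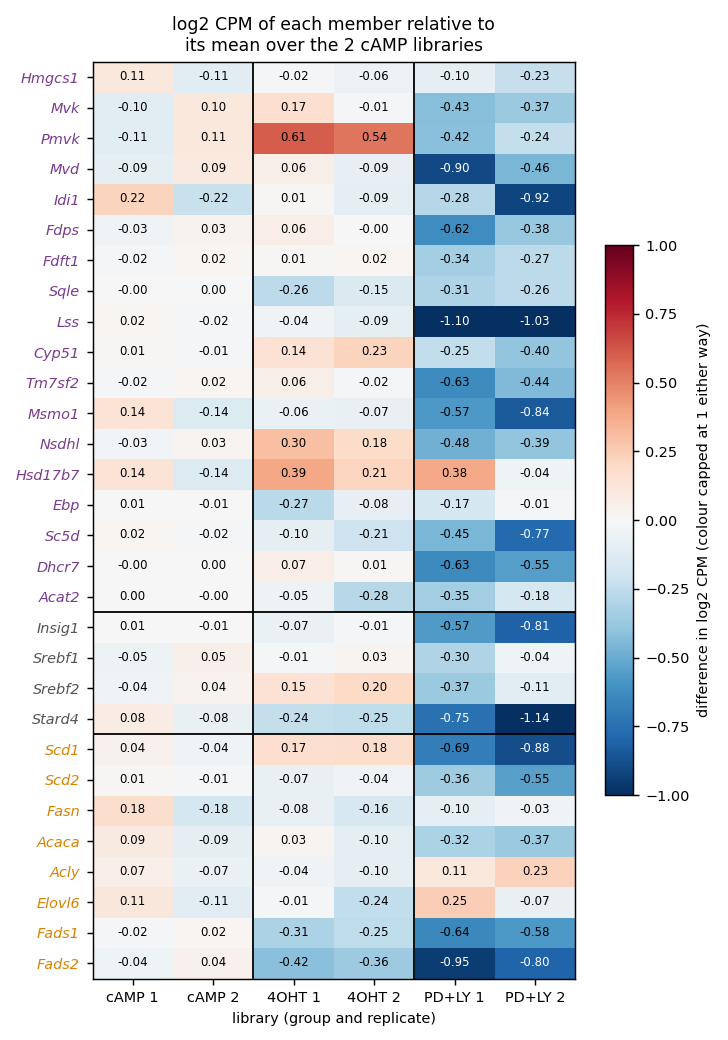
Difference in log2 CPM between each library (columns, 2 per group) and the mean of the 2 cAMP libraries for the 30 genes (rows), in pathway order from the sterol enzymes (purple) through the regulators and carrier (grey) to the fatty acid enzymes (orange). The 2 PD+LY columns are mostly blue, with Lss at -1.10 and -1.03, and Hsd17b7, Fasn, Acly and Elovl6 stand out as rows that stay pale or turn red.

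Activation of the Braf fusion was compared first. In 4OHT against cAMP, 1 of the 30 genes rose, Pmvk, and 1 fell, Fads2, at adjusted p under 0.05 (edgeR quasi-likelihood test, adjusted over 15256 genes). Of all genes tested, 4.04% rose and 4.35% fell, close to the 3.33% of the members in each direction. The median log2 fold change was 0.000294 over the sterol pathway and -0.10 over the fatty acid pathway, against -0.00215 over all genes tested. None of the 30 reached a 2-fold change, which 1.17% of all genes did upward and 1.51% downward. Under DESeq2 the same calls were made for all 30 genes.

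Pmvk, which phosphorylates mevalonate phosphate in the early part of the pathway (chr3:89454541-89469013, plus strand, GRCm38), had 42.5 and 49.2 CPM in cAMP, 69.8 and 66.3 CPM in 4OHT, and 34.1 and 38.8 CPM in PD+LY. Both 4OHT libraries were above all others, and the PD+LY libraries were below both cAMP libraries. Its log2 fold change was 0.57 (SE 0.12, edgeR adjusted p = 0.0152) in 4OHT against cAMP and -0.90 (SE 0.12, adjusted p = 0.000434) in PD+LY against 4OHT. The call in 4OHT against cAMP was lost without cAMP replicate 1 or without either 4OHT library, where the log2 fold change was 0.47, 0.54 and 0.61. The enzymes on either side of it were not called in 4OHT against cAMP. Mvk, which acts just before it, had means of 28.1 ± 2.88, 29.7 ± 2.69 and 21.2 ± 0.608 CPM in cAMP, 4OHT and PD+LY (SD, n = 2), and Mvd, which acts just after it, had 65.6 ± 6.06, 65.0 ± 4.62 and 41.3 ± 8.85 CPM.

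Fads2, a desaturase of polyunsaturated fatty acids (chr19:10062765-10101746, minus strand), had 181 and 192 CPM in cAMP, 139.6 and 145 CPM in 4OHT, and 96.4 and 107 CPM in PD+LY. The 3 groups formed separate steps without overlap. Separation of 2 groups was common with 2 libraries each. Of all 15256 genes, 4445 were higher in both 4OHT libraries than in both cAMP libraries, and 4483 were lower. Its log2 fold change was -0.39 (SE 0.09, edgeR adjusted p = 0.0257) in 4OHT against cAMP, -0.49 (SE 0.09, adjusted p = 0.00371) in PD+LY against 4OHT and -0.88 (SE 0.09, adjusted p = 5.53e-05) in PD+LY against cAMP. The call in 4OHT against cAMP was lost without each of the 4 cAMP and 4OHT libraries in turn, where the log2 fold change ran from -0.43 to -0.34. Fads1, the other desaturase of these fatty acids, had 193 and 199.5 CPM, 158 and 165 CPM, and 126 and 132 CPM in the same order, again 3 separate steps. In 4OHT against cAMP it stood at -0.28 on the log2 scale (SE 0.09) with an adjusted p of 0.0721 in edgeR, and its 95% interval ran from -0.48 to -0.09.

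**Figure D2:**
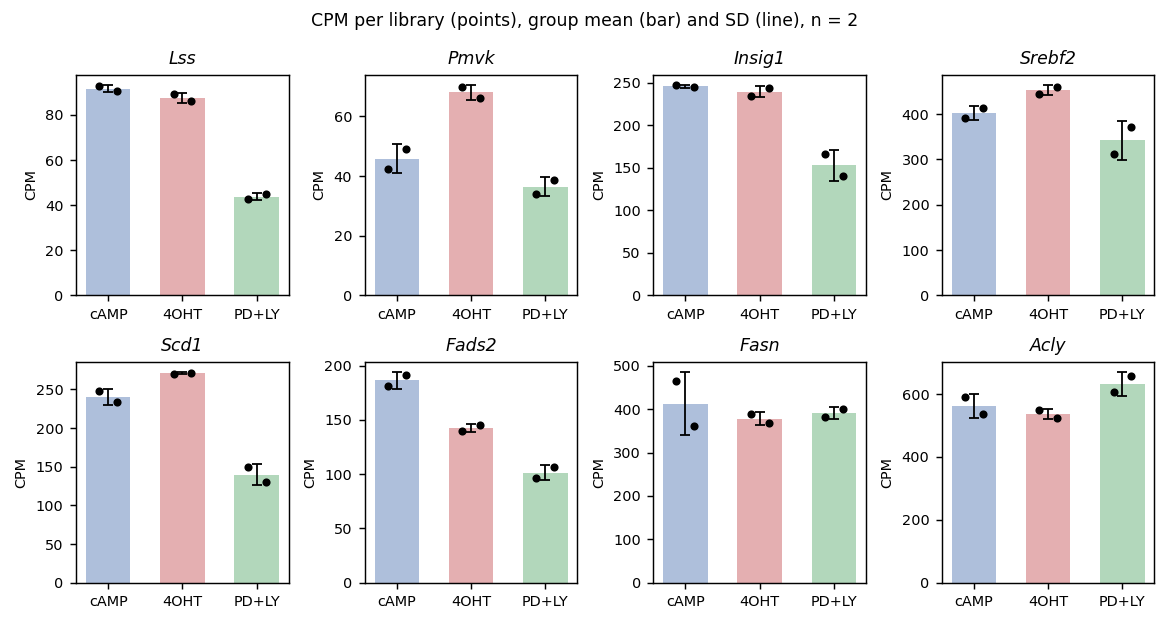
CPM in each library (points), group means (bars) and SD (lines), n = 2 per group, for 8 of the 30 genes. For Lss, Insig1 and Scd1 both PD+LY points lie below all others, Pmvk is highest in 4OHT, Fads2 steps down from cAMP to 4OHT to PD+LY, and the Fasn points of the 3 groups lie between 362 and 464 CPM.

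The effect of the inhibitors on organoids given 4OHT was read from PD+LY against 4OHT. Of the 30 genes, 20 fell and none rose at adjusted p under 0.05 in edgeR, while 12.1% of all genes tested fell and 10.7% rose. DESeq2 called 19 lower and 0 higher, and at an unadjusted p under 0.05 in edgeR 1 of the 30, Acly, was higher. The median log2 fold change was -0.47 over the 30 genes and 0.00768 over all genes tested, with 26 of the 30 values below 0. The changes were moderate. Lss alone reached a 2-fold change, at -1.001 on the log2 scale, and it was just under that threshold without cAMP replicate 2 or 4OHT replicate 1 and in 2 other fits. Of all genes, 4.90% passed that threshold downward and 2.35% upward. Of the 20, 9 kept the call without each of the 6 libraries in turn and under the 7 other fits tried, namely Pmvk, Fdps, Lss, Msmo1, Nsdhl, Dhcr7, Insig1, Stard4 and Scd1. The count fell to 11 without 4OHT replicate 1 and to 10 without 4OHT replicate 2, where 6.34% and 4.59% of all genes fell. Each of the other 11 lost the call without 1 or both of the 4OHT libraries. In bulk samples, fewer cells of a type and less RNA per cell cannot be told apart.

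Among the 7 enzymes from acetyl-CoA to farnesyl diphosphate, 4 fell in PD+LY against 4OHT (Mvk, Pmvk, Mvd and Fdps), and all 7 had values below 0. Of all genes tested, 12.1% fell. Fdps, which makes farnesyl diphosphate, had means of 183 ± 6.06 CPM in cAMP, 187 ± 6.05 CPM in 4OHT and 129.7 ± 15.7 CPM in PD+LY (SD, n = 2), a log2 fold change of -0.53 (SE 0.10, edgeR adjusted p = 0.00363) against 4OHT. Several pseudogenes closely resemble Fdps, and Gm43738 shares 26.7% of its exon bases on the same strand, so its counts are uncertain. Mvd, which decarboxylates mevalonate diphosphate, had a log2 fold change of -0.65 (SE 0.15, adjusted p = 0.00804), and Mvk one of -0.48 (SE 0.14, adjusted p = 0.0262). Hmgcs1, the synthase that opens the mevalonate route, was not called. Its mean was 264 ± 27.3 CPM in cAMP, 257 ± 4.63 CPM in 4OHT and 236 ± 15.5 CPM in PD+LY, with a log2 fold change of -0.12 against 4OHT and a 95% interval from -0.34 to 0.09 (edgeR adjusted p = 0.392). Acat2, the cytosolic thiolase, was likewise not called, at -0.10 (interval from -0.35 to 0.16), and it is 97.7% identical to Acat3 over 1477 bases. Idi1, the isomerase, had a value of -0.53 with a wide interval, from -0.98 to -0.08, and an adjusted p of 0.0872. Its counts are uncertain too, as the pseudogene Gm13502 is 100% identical to it over 684 bases.

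Among the 11 enzymes from squalene to cholesterol, 8 fell against 4OHT, as did 12.1% of all genes tested, and 10 of 11 values were below 0. Lss, the cyclase that forms lanosterol (chr10:76531588-76557138, plus strand), had 92.8 and 90.6 CPM in cAMP, 89.1 and 86.0 CPM in 4OHT, and 42.6 and 44.9 CPM in PD+LY. The PD+LY libraries lay far below the other 4, which were close together. Its log2 fold change was -1.001 (SE 0.10, edgeR adjusted p = 5.55e-05) against 4OHT and -1.07 (SE 0.10, adjusted p = 2.16e-05) against cAMP. The antisense gene 4930483K19Rik overlaps 3.53% of its exon bases and had a mean of 2.33 counts per library.

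Nsdhl, which removes a carboxyl group from the sterol nucleus (chrX:72918557-72958514, plus strand), had 33.4 and 34.7 CPM in cAMP, 41.9 and 38.6 CPM in 4OHT, and 24.4 and 25.9 CPM in PD+LY. Its PD+LY libraries were below all others and its 4OHT libraries above, with log2 fold changes of 0.24 (SE 0.12, edgeR adjusted p = 0.250) in 4OHT against cAMP and -0.68 (SE 0.12, adjusted p = 0.00239) in PD+LY against 4OHT. Msmo1, the methyl sterol oxidase that acts with it (chr8:64718139-64733792, minus strand), had 113 and 93.1 CPM, 98.1 and 97.5 CPM, and 69.0 and 57.2 CPM in cAMP, 4OHT and PD+LY. Here cAMP and 4OHT overlapped and PD+LY was lower than both. Its log2 fold change was -0.63 (SE 0.12, edgeR adjusted p = 0.0038) against 4OHT and -0.71 (SE 0.12, adjusted p = 0.00146) against cAMP.

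Dhcr7, a reductase late in the pathway, had means of 96.4 ± 0.143, 99.1 ± 2.85 and 63.8 ± 2.48 CPM in cAMP, 4OHT and PD+LY (SD, n = 2), and fell with a log2 fold change of -0.63 (SE 0.10, edgeR adjusted p = 0.000835) against 4OHT. Cyp51, which removes a methyl group from lanosterol, and Tm7sf2, the sterol reductase that follows it, had values of -0.51 (SE 0.10, adjusted p = 0.00307) and -0.55 (SE 0.16, adjusted p = 0.0237). Tm7sf2 shares 12.1% of its exon bases with Vps51 on the same strand. Sc5d, a desaturase of the sterol ring, fell by 0.46 on the log2 scale (edgeR adjusted p = 0.0425), a call that DESeq2 did not make. Fdft1, the squalene synthase, fell by 0.32 (adjusted p = 0.0234). However, the abundant gene Ctsb covers 18.3% of its exon bases on the opposite strand, and counting took no account of strand. The pseudogene Gm6781 is also 97.4% identical to Fdft1 over 1249 bases. Sqle, Ebp and Hsd17b7 were the 3 not called in this stretch. Sqle, the epoxidase often described as rate-limiting, had means of 155 ± 0.268, 135 ± 7.49 and 127 ± 2.84 CPM, with a log2 fold change of -0.08 (interval from -0.28 to 0.11) against 4OHT and of -0.29 (edgeR adjusted p = 0.0362) against cAMP. Ebp, the sterol isomerase, stood at 32.1 ± 0.199, 28.4 ± 2.64 and 30.1 ± 2.43 CPM.

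Hsd17b7, the ketosteroid reductase of the demethylation complex, had 21.1 and 17.4 CPM in cAMP, 25.1 and 22.2 CPM in 4OHT, and 25.0 and 18.6 CPM in PD+LY. The PD+LY libraries spanned most of the range of the others, and its log2 fold change against 4OHT was -0.12 with an interval from -0.49 to 0.25. It was the only enzyme of the demethylation complex among the members (with Msmo1 and Nsdhl) that was not called.

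**Figure D3:**
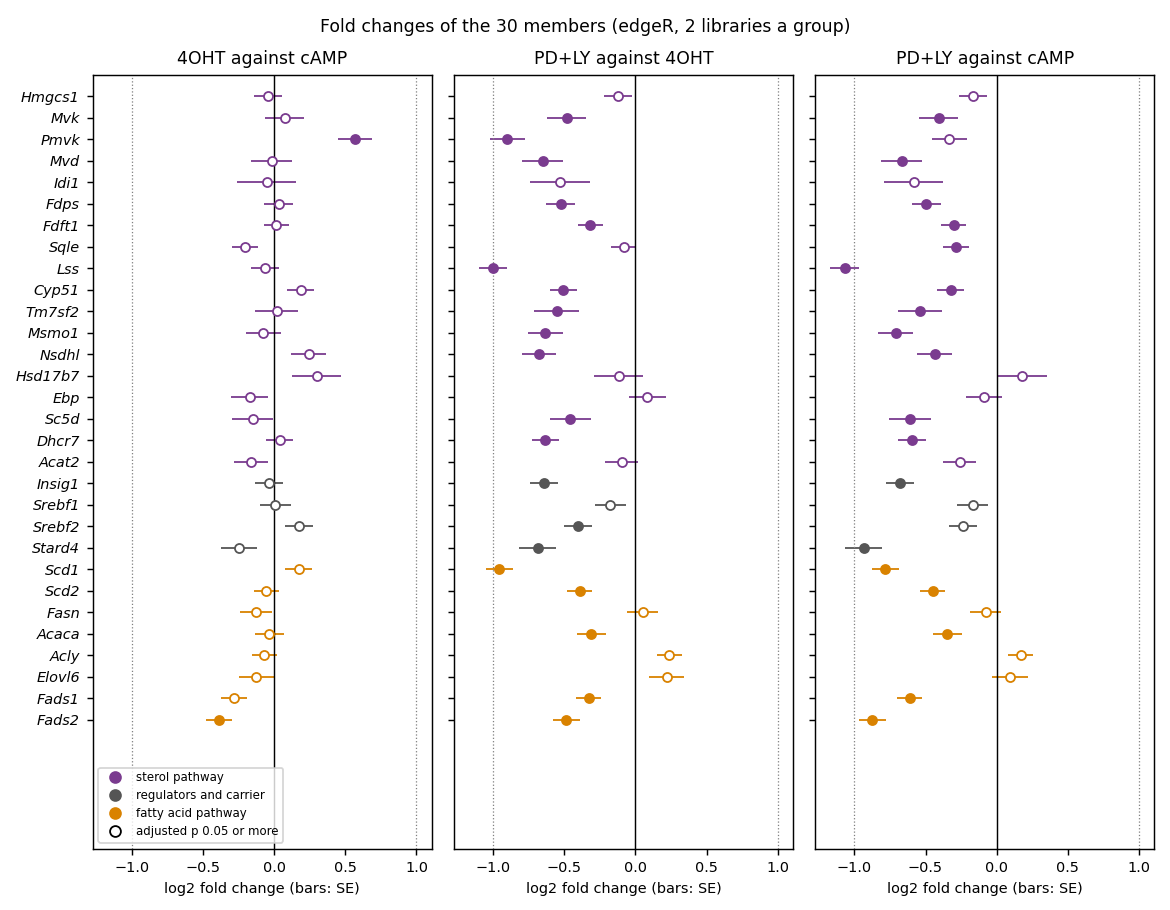
Log2 fold changes (points) and SE (bars) of the 30 genes in the 3 comparisons, in pathway order from top to bottom, with filled points for adjusted p under 0.05 and dotted lines at a 2-fold change. In the 2 right panels most sterol pathway genes and the 4 desaturases lie left of 0, while Hmgcs1, Hsd17b7, Ebp, Fasn, Acly and Elovl6 lie near 0 or to its right.

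Of the regulators and the carrier, 3 of 4 fell in PD+LY against 4OHT (75%, against 12.1% of all genes tested). Insig1, itself a target of SREBPs (chr5:28071363-28078662, plus strand), had 247 and 245 CPM in cAMP, 235 and 244 CPM in 4OHT, and 166 and 141 CPM in PD+LY. The first 4 libraries were nearly level and both PD+LY libraries were lower, with a log2 fold change of -0.64 (SE 0.10, edgeR adjusted p = 0.000882) against 4OHT and -0.68 (SE 0.10, adjusted p = 0.000416) against cAMP. Stard4, a cytosolic carrier of cholesterol, had 107 and 96.0 CPM in cAMP, 85.6 and 84.8 CPM in 4OHT, and 60.2 and 45.8 CPM in PD+LY. It stepped down across the groups without overlap. Of all 15256 genes, 4755 were likewise lower in both PD+LY libraries than in both 4OHT libraries, and 4745 were higher. Only PD+LY was called for Stard4, at -0.69 (SE 0.13, edgeR adjusted p = 0.00315) against 4OHT and -0.93 (SE 0.13, adjusted p = 0.0003) against cAMP.

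Of the SREBP genes, Srebf2 fell in PD+LY against 4OHT and Srebf1 was not called. Srebf2 (chr15:82147181-82205379, plus strand) had 392 and 413 CPM in cAMP, 445 and 461 CPM in 4OHT, and 311 and 373 CPM in PD+LY. PD+LY was the lowest group and 4OHT the highest, with a log2 fold change of -0.41 (SE 0.10, edgeR adjusted p = 0.0119) against 4OHT and of -0.23 (SE 0.10, adjusted p = 0.102) against cAMP. The call against 4OHT was lost without either 4OHT library. Srebf1 (chr11:60199089-60222581, minus strand) had 91.2 and 98.2 CPM, 94.1 and 96.4 CPM, and 76.6 and 91.9 CPM in the same order. The higher PD+LY library reached the range of cAMP, and Srebf1 was called in no comparison, with -0.18 (interval from -0.42 to 0.06) against 4OHT. Gene-level counts do not separate the Srebf1 isoforms and say nothing of the processing of the proteins.

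The fatty acid branch divided by role. All 4 desaturases fell in PD+LY, against 4OHT as well as against cAMP, with medians of -0.44 and -0.70 on the log2 scale. Of the 4 enzymes that lead to and lengthen the saturated chain (Acly, Acaca, Fasn and Elovl6), only Acaca fell, and their medians were 0.13 and 0.01. Of all genes tested, 12.1% fell against 4OHT and 13.7% against cAMP. The roles were set from known function, but this division was noticed in the values and the difference between the roles was not tested. Scd1, the stearoyl-CoA desaturase that introduces the double bond of oleate (chr19:44394455-44407879, minus strand), had 248 and 233 CPM in cAMP, 270.3 and 272 CPM in 4OHT, and 149 and 130.3 CPM in PD+LY. Both PD+LY libraries were far below the other 4, and the log2 fold change was -0.96 (SE 0.10, edgeR adjusted p = 5.55e-05) against 4OHT and -0.78 (SE 0.10, adjusted p = 0.000125) against cAMP. Scd2, its paralog, is 94.7% identical to Scd1 over 624 bases and had means of 679.9 ± 8.58, 654 ± 11.1 and 499 ± 46.3 CPM (SD, n = 2), with a log2 fold change of -0.39 (SE 0.09, adjusted p = 0.00805) against 4OHT. Fads1 fell by 0.33 (edgeR adjusted p = 0.0203) and Fads2 as given above.

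Acaca, the acetyl-CoA carboxylase, had means of 105 ± 8.92, 103 ± 6.19 and 82.7 ± 1.93 CPM in cAMP, 4OHT and PD+LY, a log2 fold change of -0.31 (SE 0.10, edgeR adjusted p = 0.0468) against 4OHT. That call was lost in 6 of the 13 alternatives, among them the fit of the 2 groups alone. Fasn, the fatty acid synthase, had 413 ± 71.8, 378 ± 15 and 392 ± 13.3 CPM, and its log2 fold change against 4OHT was 0.05, with an interval from -0.19 to 0.29. Acly, which supplies cytosolic acetyl-CoA to both branches, had 563 ± 38.6, 537 ± 16.7 and 632 ± 36.9 CPM, and both PD+LY libraries were above all others. Its log2 fold change of 0.24 (SE 0.09) had an adjusted p of 0.0735 in edgeR, and was called higher with no filter on low counts. Elovl6, which extends palmitate, had 265 ± 28.4, 243 ± 27.8 and 282 ± 44.4 CPM, with overlapping groups. Pseudogenes also resemble these genes, Gm5182 at 99.2% identity to Acaca over 6118 bases and Gm11295 at 97.4% to Elovl6 over 805 bases.

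In PD+LY against cAMP, which shares its PD+LY libraries with the comparison above, 19 of the 30 genes fell and none rose in edgeR, while 13.7% of all genes tested fell and 12.1% rose. DESeq2 gave 19 lower and 0 higher as well, and 0 were higher at an unadjusted p under 0.05 in edgeR. Lss alone passed a 2-fold change, as 6.24% of all genes did downward and 3.00% upward. The median was -0.42 over the 30 genes and 0.00492 over all genes. Of the 19, 12 kept the call without each library in turn and under the 7 other fits, namely Mvd, Fdps, Lss, Msmo1, Sc5d, Dhcr7, Insig1, Stard4, Scd1, Scd2, Fads1 and Fads2. The other 7 (Mvk, Fdft1, Sqle, Cyp51, Tm7sf2, Nsdhl and Acaca) were lost both without cAMP replicate 1 and without 4OHT replicate 1, which left a count of 12 in each case. Sqle was called here and not against 4OHT, and Pmvk and Srebf2 were called against 4OHT and not here.

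The sterol and fatty acid branches were then set side by side. Against 4OHT, 12 of 18 sterol pathway genes (66.7%) and 5 of 8 fatty acid genes (62.5%) fell, with medians of -0.52 and -0.32 in PD+LY. Against cAMP the counts were again 12 of 18 and 5 of 8, with medians of -0.42 and -0.40. Of all genes tested, 12.1% fell against 4OHT and 13.7% against cAMP. Read library by library against the mean of cAMP, the median of the sterol branch was -0.42 and -0.38 in the 2 PD+LY libraries and that of the fatty acid branch -0.34 and -0.46. The fatty acid branch was above the sterol branch in PD+LY replicate 1 and below it in replicate 2, so the order of the branches differed between replicates. In the 2 4OHT libraries the medians were 0.03 and -0.04 for sterol genes and -0.05 and -0.13 for fatty acid genes. The fatty acid minus sterol difference was therefore -0.089 and -0.090 in the 4OHT libraries. It was 0.087 and -0.073 in the PD+LY libraries, and 0.057 and -0.057 in the cAMP libraries, whose mean is the reference. Both cAMP values thus lay between the PD+LY values. Both PD+LY values lay above both 4OHT values, but that of PD+LY replicate 2 was close to them. The branch medians of gene fold changes in PD+LY against 4OHT differed by 0.20, which was not tested. The replicate SD of 0.08, pooled over the groups, belongs to the library differences above and not to this value. The spread of single genes was wider than the gap between branches, from -1.001 to 0.08 in the sterol branch and from -0.96 to 0.24 in the fatty acid branch against 4OHT. The fatty acid median also depended on its members, and was -0.13 against 4OHT without Fads1 and Fads2.

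**Figure D4:**
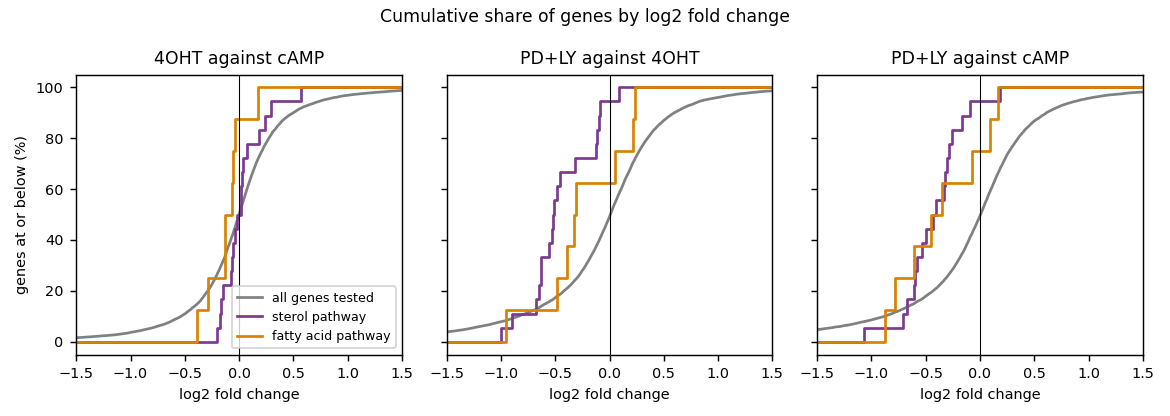
Cumulative share of genes (vertical axis, %) at or below a given log2 fold change (horizontal axis) for all 15256 genes tested (grey), the 18 sterol pathway genes (purple) and the 8 fatty acid genes (orange) in the 3 comparisons. In the left panel 9 of 18 sterol genes and 7 of 8 fatty acid genes lie below 0, with medians of 0.000294 and -0.10, and in the other 2 panels both branches are shifted to the left, with medians of -0.52 and -0.32 against 4OHT.

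Lists of markers of cell types and of proliferation were read in the same groups. The paper stained E-cadherin, encoded by Cdh1, in the thyroid follicles, so the epithelial list does not separate thyroid from other cells. The 10 mesenchymal markers summed to 1207 to 1315 CPM in cAMP, 2256 to 2378 CPM in 4OHT and 4115 to 4846 CPM in PD+LY, with 4 of 10 higher and 3 of 10 lower in PD+LY against 4OHT. Most of the PD+LY sum was Col1a1, Col1a2 and Col3a1, at means of 1345, 1307 and 1337 CPM. The 8 epithelial markers summed to 1113 to 1209, 850.2 to 948 and 799 to 845 CPM, with 6 of 8 lower in PD+LY against 4OHT. The cadherin gene Cdh1 was the 1 that was higher, at a log2 fold change of 0.67 (edgeR adjusted p = 0.000312). Of all genes tested, 12.1% were lower and 10.7% higher in PD+LY against 4OHT. Lung alveolar type 2 markers, of a cell type rich in lipid synthesis, summed to 234 to 255, 267 to 290.3 and 77.7 to 88.8 CPM. Of the 5 tested, 3 were lower in PD+LY against 4OHT, with 1 of the 6 listed at 0 in each PD+LY library. The fall of the sum lay mainly in Sftpb, with means of 206 CPM in 4OHT and 10.2 CPM in PD+LY. Abca3, of the same list, had means of 62.9 and 69.6 CPM and was not called. The part of these markers in the sterol and fatty acid results was not tested. The 11 proliferation markers summed to 3584 to 3712, 3357 to 3400 and 3129 to 3145 CPM, with log2 fold changes from -0.24 to 0.11 in PD+LY against 4OHT. Adipocyte markers were low, at 58.1 to 95.5 CPM summed over the 7 listed, with 1 to 3 of the 7 at 0. Most of that sum was Lpl, at 55.5 to 91.0 CPM.

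Genes around the 2 pathways, listed by function, were read in the same fit. Under the inhibitors, against 4OHT, 4 of 10 genes that act on SREBP processing or turnover rose (40%) and 1 fell (10%). Of all genes tested, 10.7% rose and 12.1% fell. Mbtps2 and Mbtps1, the proteases that release SREBPs, rose by 0.64 and 0.52 on the log2 scale (edgeR adjusted p = 0.0179 and 0.0014). Gsk3b and Fbxw7, which promote breakdown of mature SREBPs, rose by 0.50 and 0.40 (adjusted p = 0.0406 and 0.0411) and are named after their values were seen. Lpin1, a phosphatidate phosphatase, fell, with a log2 fold change of -1.04 (adjusted p = 0.000111). Of 16 further genes of sterol and isoprenoid synthesis, 2 rose and 2 fell (12.5% each), near the shares over all genes. Among them were Pdss2 at 0.73 and Por at -0.57. Of 18 genes of sterol uptake, storage and efflux, 2 rose (11.1%) and 4 fell (22.2%). The largest falls were in the lipoprotein receptors Vldlr at -1.03 and Lrp8 at -0.98 and in Apoe at -0.74 (edgeR adjusted p = 0.000689, 0.000304 and 0.0013). Each of these 3 lists held calls in both directions. Against cAMP, none of Mbtps2, Mbtps1, Gsk3b and Fbxw7 was called in PD+LY. Mbtps2 had means of 44.5, 29.4 and 45.9 CPM in cAMP, 4OHT and PD+LY, and Mbtps1 had 285, 235 and 338 CPM. In that comparison 1 of the 10 genes of SREBP processing or turnover rose (10%) and 1 fell (10%). Of all genes tested, 12.1% rose and 13.7% fell there.

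Among 24 further genes of fatty acid synthesis, PD+LY was higher than 4OHT for 2 (8.33%) and lower for 6 (25%). The lipogenic regulators Thrsp, Mlxipl and Mid1ip1 fell most, with log2 fold changes of -1.52, -1.18 and -1.09 (edgeR adjusted p = 0.0157, 0.00158 and 0.000175), though Thrsp was scarce, at 2.47 and 2.85 CPM in 4OHT and 1.07 and 0.778 CPM in PD+LY. Of 20 genes of fatty acid activation and storage, 2 rose (10%) and 6 fell (30%). The acyl-CoA synthetases Acsl6, Acsl5 and Acsl4 were at -1.37, -1.15 and -0.81. Of 21 genes of fatty acid oxidation, 3 rose (14.3%) and 2 fell (9.52%), near the 10.7% and 12.1% over all genes. Slc25a20, the mitochondrial acylcarnitine carrier, and Acadm rose by 0.81 and 0.51 on the log2 scale (edgeR adjusted p = 0.00118 and 0.00196).

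**Figure D5:**
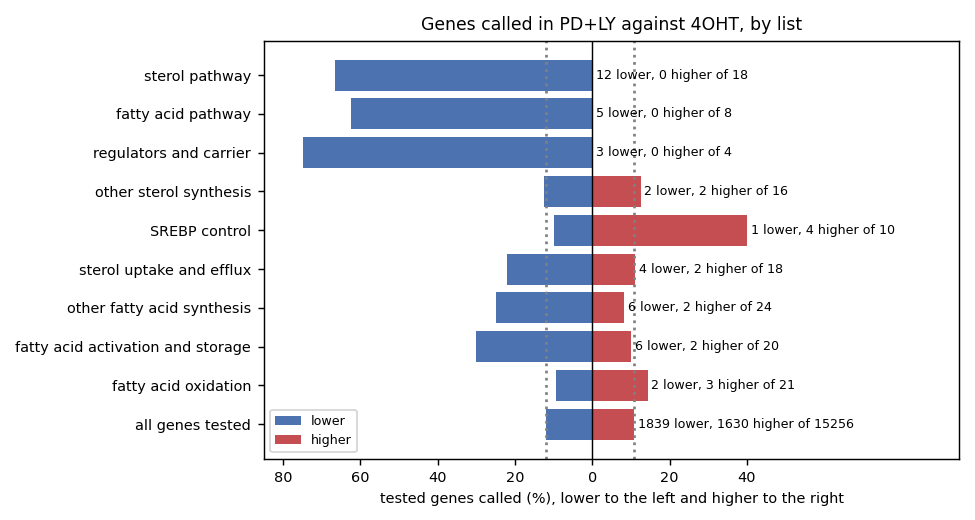
Share of tested genes called in PD+LY against 4OHT (horizontal axis, %; lower to the left in blue, higher to the right in red) for the 3 groups of members, 6 further lists and all 15256 genes, whose shares are the dotted lines. The sterol and fatty acid members are at 66.7% and 62.5% lower with none higher, and all 6 further lists hold calls in both directions.

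The surrounding lists were also read in 4OHT against cAMP. Of the 18 genes of uptake, storage and efflux, 3 fell (16.7%, against 4.35% of all genes tested), among them Soat1, which esterifies cholesterol, and Abcg1, a cholesterol exporter, both at -0.80 (edgeR adjusted p = 0.00526 and 0.027). Me1, the malic enzyme that supplies NADPH, was the only 1 of 24 called in the further fatty acid synthesis list (4.17%). It stood at -0.46 (edgeR adjusted p = 0.0257). Fabp5 and Fabp3, which bind fatty acids, rose by 0.52 and 0.42 (adjusted p = 0.0167 and 0.0125). Of the oxidation genes, Acadl fell by 0.62, and Hadh and Acadm rose (adjusted p = 0.0112 and 0.0437 for the latter). In PD+LY against cAMP, Soat1 stood at -1.09 and Abca1, a cholesterol exporter, at 1.03 (adjusted p = 0.000166 and 0.00433), with 17.4 and 12.8 CPM of Abca1 in cAMP and 37.8 and 23.7 CPM in PD+LY. Scap, the escort of SREBPs, rose by 0.41 (adjusted p = 0.0233) in that comparison, in which none of the 30 members rose.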

How the data were processed

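RNA of 6 organoid libraries, 2 each of cAMP, 4OHT and PD+LY, was sequenced by the authors from a stranded mRNA kit. The deposited values are raw counts per gene, made by the authors with Trimmomatic, HISAT2 on mm10 and HTSeq without use of strand, so reads of overlapping genes on opposite strands cannot be told apart. Groups follow the treatment given in the labels. Nothing states that the 2 libraries of a group came from separate differentiations, so p-values measure the spread between libraries, which may be technical.

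Genes were filtered with filterByExpr (minimum count 10), scaled by TMM and tested with edgeR 4.0.16 in R 4.3.3, by the quasi-likelihood test on all 6 libraries with Benjamini-Hochberg adjustment over 15256 genes. A gene was called, and is said to rise or fall, at adjusted p under 0.05. Levels are CPM of the total of the tested genes scaled by TMM, and per kilobase values divide by the length of the principal transcript in GENCODE. Fold changes carry the SE and 95% interval of the fit. All 3 groups shared 1 estimate of the spread, although the replicates differed more in PD+LY than in the other groups. The chi-square per degree of freedom between replicates was 18.4 in PD+LY, 8.48 in cAMP and 4.63 in 4OHT. The SE and adjusted p of both PD+LY comparisons may therefore be too small, and those of 4OHT against cAMP too large. The scripts were tested on simulated counts. Alternatives were DESeq2 1.42.0, RLE size factors, library totals, 2 other count filters, a replicate block, the 2 compared groups alone, each library left out in turn, adjusted p under 0.01 and other branch members.

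The members, though picked by name, and the lists and tests were chosen with earlier results of these data known, and the lists therefore give no independent support. CPM per library is printed for members with a 2-fold change, for the 5 members with the largest change in each comparison and for Insig1, Srebf1 and Srebf2. At most 3 called genes with the largest change were named from each further list, and not every such gene is reported here. Similar transcripts (at least 90% identity over 300 bases) were found with BLAST+ 2.17.0. Counts and shares of lists are descriptions without a test.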

Additional observations from a re-analysis of the deposited data

How the results depend on the processing

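For 4OHT against cAMP, 2 members (Fads2 and Fads1) were called lower with the replicate block and with only the 2 groups compared, against 1 without them, and at adjusted p under 0.01 the counts were 0 higher and 0 lower. For PD+LY against 4OHT, 1 member, Acly, was called higher with no filter on low counts and with the replicate block, 0 members reached a 2-fold change with no filter or with only the 2 groups compared, and 13 were called lower at adjusted p under 0.01. Against cAMP, 12 were called lower at that threshold. The replicate numbers of the labels give 2 pairs and no shared origin. The difference between replicates 1 and 2 correlated across genes at 0.0718 between cAMP and 4OHT, 0.0586 between 4OHT and PD+LY and 0.207 between cAMP and PD+LY, and over the 30 members at 0.167, 0.125 and 0.724. With the replicate block 21 members were called lower against 4OHT and 22 against cAMP. Over all genes, the block moved the counts in 4OHT against cAMP from 617 higher and 663 lower to 1131 and 1242, only the 2 groups gave 1126 and 1181, and no filter gave 1012 and 1174. The fatty acid median was -0.13 in PD+LY against 4OHT, and -0.21 against cAMP, without Fads1 and Fads2, and -0.53 against cAMP without Acly and Acaca, and the sterol median against cAMP was -0.47 with Stard4 and Insig1.

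Leaving out each library in turn leaves 1 library in a group, which is assumed to vary like the others. The ranges were as follows. For 4OHT against cAMP, 0 to 1 members were called higher and 0 to 2 lower. The sterol median ran from -0.038 to 0.040, the fatty acid median from -0.18 to -0.0060 and their difference from -0.22 to -0.0041. For PD+LY against 4OHT, 0 to 1 were called higher and 10 to 19 lower, 0 to 1 reached a 2-fold change, and the sterol median ran from -0.56 to -0.46. For PD+LY against cAMP, 12 to 19 were called lower and 1 to 2 reached a 2-fold change, the second being Stard4 without PD+LY replicate 1. There the sterol median ran from -0.45 to -0.36, and the fatty acid minus sterol difference from -0.073 to 0.10. Over all genes in 4OHT against cAMP, 111 to 1104 were called higher and 105 to 1210 lower. Genes that changed sign were not called in the comparison. In 4OHT against cAMP, log2 fold changes ran from -0.14 to 0.066 for Hmgcs1, -0.025 to 0.19 for Mvk, -0.11 to 0.088 for Mvd, -0.26 to 0.18 for Idi1, -0.0039 to 0.070 for Fdps, -0.0037 to 0.040 for Fdft1, -0.018 to 0.059 for Tm7sf2, -0.21 to 0.069 for Msmo1, -0.045 to 0.067 for Srebf1, -0.29 to 0.060 for Fasn, -0.12 to 0.051 for Acaca and -0.13 to 0.0018 for Acly. In PD+LY against 4OHT they ran from -0.34 to 0.081 for Hsd17b7, -0.0032 to 0.19 for Ebp and -0.20 to 0.023 for Acat2, and in PD+LY against cAMP from -0.043 to 0.38 for Hsd17b7, -0.24 to 0.11 for Fasn and -0.076 to 0.25 for Elovl6. The cause of these changes was not tested. With 2 libraries per group, the intervals printed for members not called still include changes of up to 0.98 on the log2 scale in size.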
